A study of Homo sapiens with 11 samples.

Results

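The 8 genes described here move bicarbonate, protons and lactate across the plasma membrane or serve that transport: SLC4A2, SLC4A4 and SLC4A7, the carbonic anhydrase genes CA9 and CA12, the monocarboxylate transporter genes SLC16A1 and SLC16A3, and BSG. They were taken by gene symbol from the authors' deposited table, in which each of the 8 had 1 row among 23327 named genes. They were selected on their role and on deposited log2 fold changes already known, SLC4A4 being among the largest decreases, so the values of the knockdown comparison are given for them as a description and not as a test. RNA-seq was done on liver tumours grown from PANC1 LM3 cells, a liver-metastatic derivative, generation 3, of the human pancreatic ductal carcinoma line PANC1. The cells carried a short hairpin RNA against NPTX1, either shNPTX1_3 (3 libraries) or shNPTX1_4 (4 libraries), both labelled as NPTX1 knockdown, or the control hairpin shCTRL (4 libraries), labelled WT. For every group the spleen received 500000 cells on day 1, and liver tumours were collected on day 21. The libraries are described as biological replicates, without a statement that each came from its own animal, so the deposited p-values cover only library-to-library spread, part of which may be technical. Whether a hairpin line was 1 clone or a pool, and which host animal was used, the sources used here do not say.

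Tumour cells that ferment glucose make lactate and protons and have to export both while keeping their interior near neutral. Monocarboxylate transporters of the SLC16 family carry lactate together with a proton, and MCT1 (SLC16A1) and MCT4 (SLC16A3) need a glycoprotein chaperone, basigin (BSG), to reach the cell surface. Bicarbonate transporters of the SLC4 family bring in base or exchange it for chloride, and carbonic anhydrases IX and XII, with their catalytic domains outside the cell, interconvert carbon dioxide and bicarbonate. In normal pancreas, the bicarbonate cotransporter encoded by SLC4A4 serves the bicarbonate secretion of the ducts. CA9 and SLC16A3 are known targets of hypoxia-inducible factor, whose binding motif contains ACGTG or GCGTG.

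For CA9 and SLC16A3, named above as known targets of hypoxia-inducible factor, the 250 bases before a start of each are shown. They are from RefSeq on GRCh38.p14, plus strand, with the letters ACGTG, or their reverse complement CACGT, in capitals. The change of CA9 did not pass (DESeq2, adjusted p = 0.570), so no difference in response between these genes is read into the letters. The CA9 window is chr9:35673678-35673927 and the SLC16A3 window is chr17:82228792-82229041, the 1 window with a match among the 5 starts listed for that gene.
CA9: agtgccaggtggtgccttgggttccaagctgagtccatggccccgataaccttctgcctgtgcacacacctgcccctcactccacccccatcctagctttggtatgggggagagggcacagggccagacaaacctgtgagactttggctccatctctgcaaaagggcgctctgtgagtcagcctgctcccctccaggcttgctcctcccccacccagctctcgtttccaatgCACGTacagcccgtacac
SLC16A3: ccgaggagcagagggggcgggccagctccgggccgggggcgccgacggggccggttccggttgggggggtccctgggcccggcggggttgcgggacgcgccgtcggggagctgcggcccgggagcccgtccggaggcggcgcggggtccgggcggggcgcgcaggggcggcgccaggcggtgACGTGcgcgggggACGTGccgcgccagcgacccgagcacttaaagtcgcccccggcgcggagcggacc

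The CA9 window held 1 match on the minus strand, 18 to 14 bases before the start, and the SLC16A3 window held 2 on the plus strand, 68 to 64 and 55 to 51 bases before it. Searched on both strands, so that CACGTG counts once on each, ACGTG was in 18.5% and GCGTG in 32.2% of the 35116 windows of this length in the RefSeq table. Windows were listed for 7 of the 8 genes, all but SLC16A1, 20 in all. Neither motif was in the 5 windows of SLC4A4. ACGTG was absent from the 2 windows of SLC4A7, of which 1 held GCGTG, and the 1 window of CA12 held GCGTG alone. Of the 4 windows of SLC4A2, 2 held ACGTG and 4 held GCGTG, and of the 2 windows of BSG, 1 held each motif. Of the 5 windows of SLC16A3, 1 held ACGTG and 2 held GCGTG. These matches describe the letters of the windows; no binding was measured.

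The question of the comparison was which genes differ between tumours with NPTX1 knocked down and control tumours, and for the 8 genes it gave 1 large decrease and several small increases. SLC4A4 was lower with both hairpins, SLC4A7, SLC4A2, SLC16A1 and SLC16A3 were higher with both, and CA9, CA12 and BSG did not pass an adjusted p of 0.05. By DESeq2 in the authors' deposited table, 5 of the 8 genes passed this threshold, 4 higher and 1 lower. Over all 18426 named genes with an adjusted p, 27.3% passed, 15.8% higher and 11.5% lower; since the genes were chosen with this comparison known, nothing is read from their share. The median log2 fold change was 0.17 over the 8 genes and -0.01 over all genes with an adjusted p. Of the increases, only that of SLC4A7 passed once group totals were made equal (total scaling), a shift of 0.07 off each log2 fold change that leaves 2 of the 8 genes past the threshold. The targeted gene, NPTX1, averaged 46.5 normalized counts in shNPTX1_3 tumours, 38.4 in shNPTX1_4 tumours and 103 in shCTRL tumours.

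**Figure D1:**
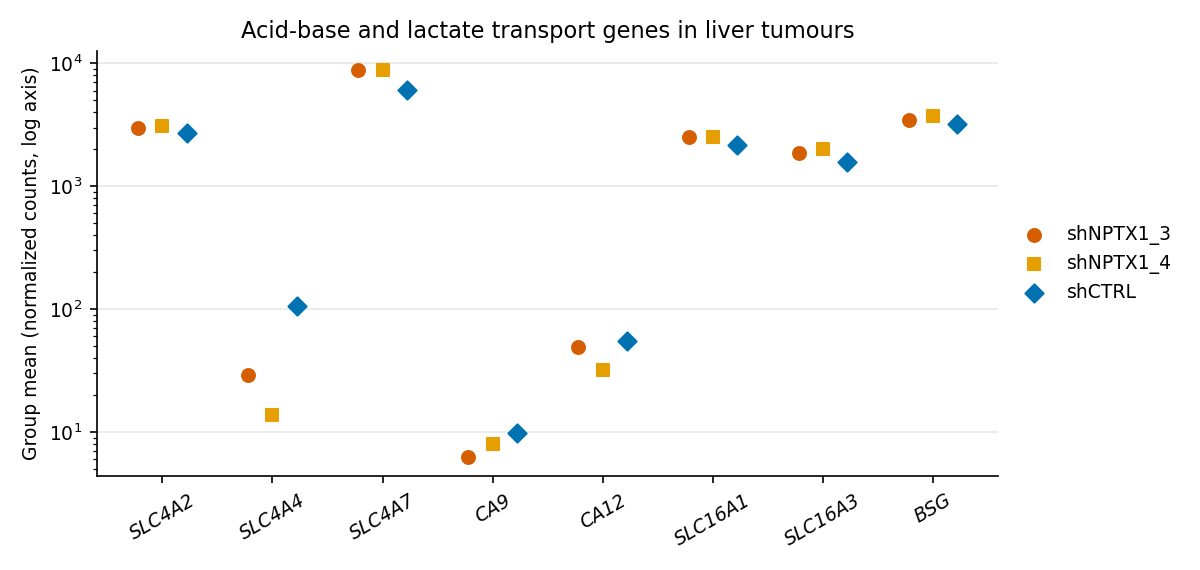
Group means of the 8 genes in normalized counts on a log axis, 1 point for shNPTX1_3, shNPTX1_4 and shCTRL tumours each, with no error bar, since single-library values were not analysed here. SLC4A4 has 29.3 and 13.7 in the knockdown groups, against 106 in shCTRL tumours, while the 5 best-expressed genes lie close together between groups.

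Single-library values were not analysed here, and each level is the authors' mean of a group, in counts divided by library size factors, without an SD. Errors of changes are the deposited standard errors (SE) of a log2 fold change that sets the 7 knockdown libraries as 1 group against the 4 control libraries. Libraries held an estimated 10800000 to 24000000 reads on genes in shNPTX1_3, 16600000 to 26100000 in shNPTX1_4 and 13000000 to 41200000 in shCTRL. These depths were read from the step that a single read makes in the low group means. The estimate takes the normalized total of each library as that of its group mean. Of 6 carcinoma epithelium markers, the keratins KRT8, KRT18, KRT19 and KRT7 rose, and the list summed to 56791 normalized counts in shNPTX1_3 tumours, 29042 in shNPTX1_4 tumours and 16162 in shCTRL tumours. EPCAM and CDH1 had knockdown means on either side of control and did not pass (adjusted p = 0.665 and 0.275). Of 8 hepatocyte markers, APOA1 and TF rose, and the list summed to 171, 84.8 and 71.2 normalized counts in shNPTX1_3, shNPTX1_4 and shCTRL tumours, with ALB and TTR under 1 in every group. Markers of leukocytes, endothelium and fibroblasts or stellate cells summed to 369 to 1201 normalized counts per group. The leukocyte marker CD68 alone had 794, 635 and 697 normalized counts in shNPTX1_3, shNPTX1_4 and shCTRL tumours. Of 17 tested genes of these lists, 1 was called, LUM, which rose. Counts of called markers stand beside 27.3% called over all genes with an adjusted p. All markers are human gene symbols, and the handling of host reads is not given, so their levels cannot gauge host cells. Red cell markers summed to 17.2, 26.0 and 21.9 normalized counts in shNPTX1_3, shNPTX1_4 and shCTRL tumours. The part of other cells in the results on the 8 genes was not tested. In bulk tissue, fewer cells that express a gene and less RNA per cell cannot be told apart.

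SLC4A4 encodes NBCe1, an electrogenic sodium bicarbonate cotransporter. Its group mean by the authors' deposited table was 29.3 normalized counts in shNPTX1_3 tumours and 13.7 in shNPTX1_4 tumours, against 106 in shCTRL tumours. Both knockdown means were thus far below control, at 0.275 and 0.129 of it, and the shNPTX1_3 mean was 2.13-fold that of shNPTX1_4. Its log2 fold change by the authors' deposited table was -2.42 ± 0.33 (SE), with a 95% interval of -3.06 to -1.78 and an adjusted p of 1.53e-11 (DESeq2). At 2.68 CPM over all libraries (normalized counts per 1000000 of the table's mean total), SLC4A4 lay just above the 2 CPM minimum used here for counts over all genes. It reached that minimum, 38.6 normalized counts, through shCTRL, as both knockdown means lay below it. It was the 1 gene of the 8 that was at least 2-fold lower with each hairpin, a size reached by 0.488% of the 14131 genes at 2 CPM or more. Since SLC4A4 was chosen with its decrease known, nothing is read from this share. No single-library value bears on the gap between the hairpins, which was not tested.

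SLC4A7 encodes NBCn1, an electroneutral sodium bicarbonate cotransporter that brings base into the cell. Its group mean by the authors' deposited table was 8757 normalized counts in shNPTX1_3 tumours and 8814 in shNPTX1_4 tumours, against 6118 in shCTRL tumours. The knockdown means stood 1.43-fold and 1.44-fold above control and nearly on top of each other. The log2 fold change by the authors' deposited table was 0.52 ± 0.10 (SE), with a 95% interval of 0.34 to 0.71 (DESeq2, adjusted p = 1.31e-06). SLC4A2 encodes AE2, which exchanges intracellular bicarbonate for chloride and so acidifies the cell. Its group mean by the authors' deposited table was 3003 normalized counts in shNPTX1_3 tumours and 3086 in shNPTX1_4 tumours, against 2694 in shCTRL tumours. This was a log2 fold change of 0.18 ± 0.07 (SE) by the authors' deposited table, with an adjusted p of 0.0273 (DESeq2). With total scaling the adjusted p of SLC4A2 was 0.189, and with log2 fold changes centred on the median of genes at 2 CPM or more it was 0.0590.

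**Figure D2:**
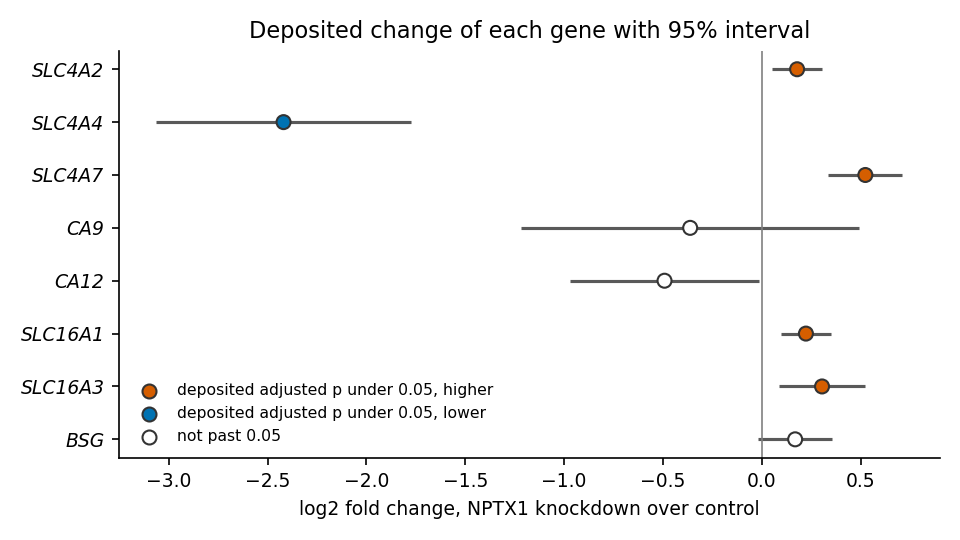
Log2 fold change of each of the 8 genes, NPTX1 knockdown over control, with its 95% interval from the deposited standard error. SLC4A4 stands alone at -2.42, the intervals of SLC4A2, SLC4A7, SLC16A1 and SLC16A3 lie above 0, and those of CA9 and BSG cross it.

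Of the 10 SLC4 genes, 9 had an adjusted p by the authors' deposited table. Of these, 3 rose, 3 fell and 3 did not pass, with a median log2 fold change of -0.19. Over all genes with an adjusted p, 15.8% rose and 11.5% fell, and nothing particular to the family is read from its counts. Besides the genes above, SLC4A11, a membrane transporter of the corneal endothelium, rose by 0.93 on the log2 scale (SE 0.12) by the authors' deposited table. Its group means were 752 normalized counts in shNPTX1_3 tumours and 608 in shNPTX1_4 tumours, against 352 in shCTRL tumours. SLC4A8, a sodium-driven chloride-bicarbonate exchanger, fell by 0.64 by the authors' deposited table (DESeq2, adjusted p = 8.28e-07), with group means of 587, 585 and 909 normalized counts in shNPTX1_3, shNPTX1_4 and shCTRL tumours. SLC4A3, the chloride-bicarbonate exchanger AE3, fell by 0.47 by the authors' deposited table (DESeq2, adjusted p = 0.00157). SLC4A1, the anion exchanger of red cells, had 232, 261 and 283 normalized counts in shNPTX1_3, shNPTX1_4 and shCTRL tumours and did not pass (adjusted p = 0.435), while the haemoglobin gene HBB stayed below 2 normalized counts in every group.

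Levels of different genes were compared per kilobase of annotated exon. Within the SLC4 family SLC4A7 held 54.6% of the summed level per kilobase in shNPTX1_3 tumours and 55.6% in shNPTX1_4 tumours, against 48.2% in shCTRL tumours. SLC4A2 came next, with 23.7%, 24.7% and 26.9% in shNPTX1_3, shNPTX1_4 and shCTRL tumours. SLC4A4 held 0.182% and 0.0864% in the knockdown groups, against 0.838% in shCTRL tumours, so it was a small part of the family's message in all 3 groups. The level per kilobase of SLC4A7 was 299 times that of SLC4A4 in shNPTX1_3 tumours and 643 times in shNPTX1_4 tumours, against 57.5 times in shCTRL tumours.

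**Figure D3:**
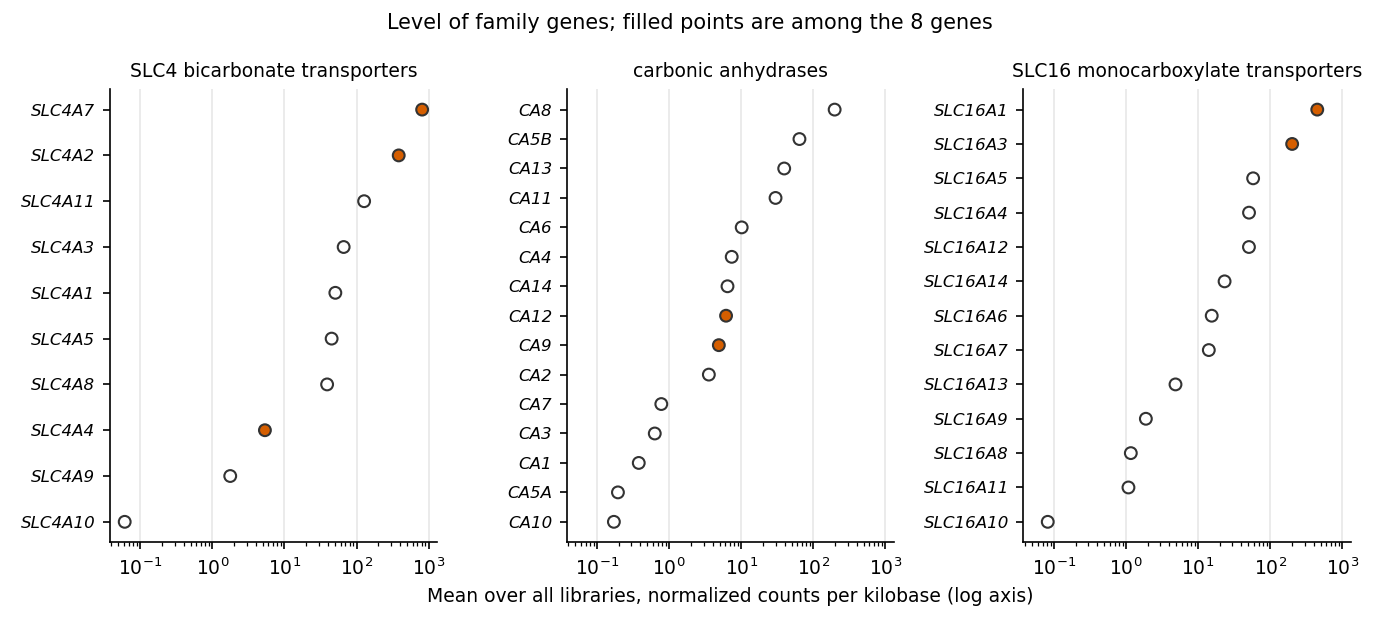
Mean level over all libraries of SLC4, carbonic anhydrase and SLC16 genes, in normalized counts per kilobase of exon on a log axis, with the genes described here filled. SLC4A7 at 813 and SLC4A2 at 385 head the SLC4 family and SLC16A1 at 450 and SLC16A3 at 202 the SLC16 family, while CA12 at 6.16 and CA9 at 4.90 lie low among the carbonic anhydrases.

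The lactate carriers were both slightly higher in the knockdown tumours. SLC16A1 encodes MCT1, which carries lactate in either direction. Its group mean by the authors' deposited table was 2538 normalized counts in shNPTX1_3 tumours and 2510 in shNPTX1_4 tumours, against 2164 in shCTRL tumours. The log2 fold change by the authors' deposited table was 0.22 ± 0.07 (SE), with a 95% interval of 0.09 to 0.35 (DESeq2, adjusted p = 0.00456, or 0.0563 with total scaling). SLC16A3 encodes MCT4, the export carrier of glycolytic cells. Its group mean by the authors' deposited table was 1873 normalized counts in shNPTX1_3 tumours and 2010 in shNPTX1_4 tumours, against 1581 in shCTRL tumours. Its log2 fold change by the authors' deposited table was 0.30 ± 0.11 (SE) (DESeq2, adjusted p = 0.0259, or 0.0903 with total scaling). Per kilobase of exon, SLC16A1 was 2.29 times SLC16A3 in shNPTX1_3 tumours and 2.11 times in shNPTX1_4 tumours, against 2.32 times in shCTRL tumours. This order turned round when the median length of the coding transcripts was used, with a mean over all libraries of 1087 normalized counts per kilobase for SLC16A1 and 1989 for SLC16A3.

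Of the sodium-coupled lactate carriers, SLC5A12 was tested and did not pass (adjusted p = 0.496). Of the 14 SLC16 genes, 13 had an adjusted p by the authors' deposited table. SLC16A1 and SLC16A3 were the 2 that rose, with 0 that fell, beside 15.8% higher and 11.5% lower over all genes. With total scaling 0 rose and 2 fell, SLC16A7, the high-affinity monocarboxylate transporter MCT2, and SLC16A12, with adjusted p-values of 0.0354 and 0.0437. The median log2 fold change of the 13 genes by the authors' deposited table was -0.13.

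BSG, basigin, averaged 3444 normalized counts in shNPTX1_3 tumours and 3712 in shNPTX1_4 tumours, against 3201 in shCTRL tumours, by the authors' deposited table. The log2 fold change by the authors' deposited table was 0.17 ± 0.10 (SE), and its 95% interval of -0.02 to 0.36 holds both no change and increases of the size seen for SLC16A1 and SLC16A3 (DESeq2, adjusted p = 0.183). Per kilobase of exon, BSG was 1.32 times the sum of SLC16A1 and SLC16A3 in shNPTX1_3 tumours and 1.40 times in shNPTX1_4 tumours, against 1.45 times in shCTRL tumours. With the median length of the coding transcripts, BSG had a mean over all libraries of 3017 normalized counts per kilobase. That did not exceed the sum of SLC16A1 at 1087 and SLC16A3 at 1989. Its relative EMB, embigin, also a chaperone of monocarboxylate transporters, fell by 0.57 by the authors' deposited table (SE 0.08, adjusted p = 5.63e-12). EMB group means were 1943 normalized counts in shNPTX1_3 tumours and 1987 in shNPTX1_4 tumours, against 2918 in shCTRL tumours. NPTN, neuroplastin, the other relative of basigin, rose by 0.31 by the authors' deposited table (DESeq2, adjusted p = 6.1e-04). PPIA, cyclophilin A, a ligand of basigin, did not pass (adjusted p = 0.0916). Of these 4 genes 1 thus rose and 1 fell, beside 27.3% called over all genes. Per kilobase of exon the ratio of BSG to EMB was 2.45 in shNPTX1_3 tumours and 2.59 in shNPTX1_4 tumours, against 1.52 in shCTRL tumours.

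The carbonic anhydrase genes among the 8, CA9 and CA12, had low counts. CA9 averaged 6.26 normalized counts in shNPTX1_3 tumours and 7.99 in shNPTX1_4 tumours, against 9.79 in shCTRL tumours, by the authors' deposited table. At 0.424 CPM over all libraries it was the 1 gene of the 8 below 2 CPM. The log2 fold change of CA9 by the authors' deposited table was -0.36 ± 0.44 (SE) (DESeq2, adjusted p = 0.570), and its 95% interval of -1.22 to 0.49 leaves room for a change of more than 2-fold downward. CA12 averaged 48.7 normalized counts in shNPTX1_3 tumours and 32.1 in shNPTX1_4 tumours, against 55.4 in shCTRL tumours, by the authors' deposited table. Both knockdown means of CA12 were below control, by unequal amounts, 0.879 and 0.580 of it. The log2 fold change of CA12 by the authors' deposited table was -0.49 ± 0.24 (SE), with a p of 0.0431 and a DESeq2 adjusted p of 0.117.

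Per kilobase of exon, 7 other carbonic anhydrase genes had a higher mean over all libraries than CA12. The highest was CA8, a carbonic anhydrase-related protein without catalytic activity, with 198 normalized counts per kilobase, followed by the mitochondrial CA5B with 64.2 and the cytosolic CA13 with 39.5. CA12 had 6.16 and CA9 had 4.90. With the median length of the coding transcripts CA5B, at 400 normalized counts per kilobase, came above CA8 at 300. By that length CA14, at 16.2, also fell just below CA12 at 16.4. CA8, CA5B and CA13 did not pass by the authors' deposited table, with adjusted p-values (DESeq2) of 0.917, 0.984 and 0.197. Of 15 carbonic anhydrase genes, 10 had an adjusted p, of which 1 rose, 1 fell and 8 did not pass. These counts stand beside 27.3% called over all genes. The membrane-anchored CA4 rose, with 39.9 normalized counts in shNPTX1_3 tumours and 15.3 in shNPTX1_4 tumours, against 3.96 in shCTRL tumours, a log2 fold change of 2.84 ± 0.54 (SE) by the authors' deposited table. The cytosolic CA2 fell, with 2.61 and 3.21 normalized counts in shNPTX1_3 and shNPTX1_4 tumours, against 15.6 in shCTRL tumours (log2 fold change -2.37, SE 0.55 by the authors' deposited table). CA4 and CA2, like CA9, lay below 2 CPM.

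All 8 genes lay on the same side of control with either hairpin, 5 above and 3 below, a pattern found in 76.2% of the 14131 genes at 2 CPM or more. The log2 ratios to control, with a pseudocount of 1, differed by 0.11 or less between hairpins for the 5 best-expressed genes. For SLC4A7 they were 0.52 with shNPTX1_3 and 0.53 with shNPTX1_4, for SLC16A1 0.23 and 0.21, and for SLC4A2 0.16 and 0.20. SLC16A3 had 0.24 with shNPTX1_3 and 0.35 with shNPTX1_4, and BSG 0.11 and 0.21. With total scaling all 8 genes kept their side, but the shNPTX1_3 ratio was only 0.01 for BSG and 0.06 for SLC4A2. The widest gap was that of SLC4A4, at -1.83 with shNPTX1_3 and -2.87 with shNPTX1_4, followed by CA12 at -0.18 and -0.77 and CA9 at -0.57 and -0.26. These gaps belong to the 3 genes of lowest counts, and no test per hairpin was made, since the table holds group means. Among genes at 2 CPM or more, those nearest to SLC4A4 in the pair of ratios were SEMA6B, TIMP2, TLR2, OSBPL6 and TRIM9. Their distances, over the 3 group means, were 0.25 to 0.59 on the log2 scale. TLR2, like SLC4A4, reached that minimum through shCTRL, with 22.8, 17.9 and 103 normalized counts in shNPTX1_3, shNPTX1_4 and shCTRL tumours. The filter thus shapes which genes can be near SLC4A4. The genes nearest to SLC4A7 were HSPA13, NGDN, DPY30, SWI5 and NUP37, all within 0.015 log2 units.

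**Figure D4:**
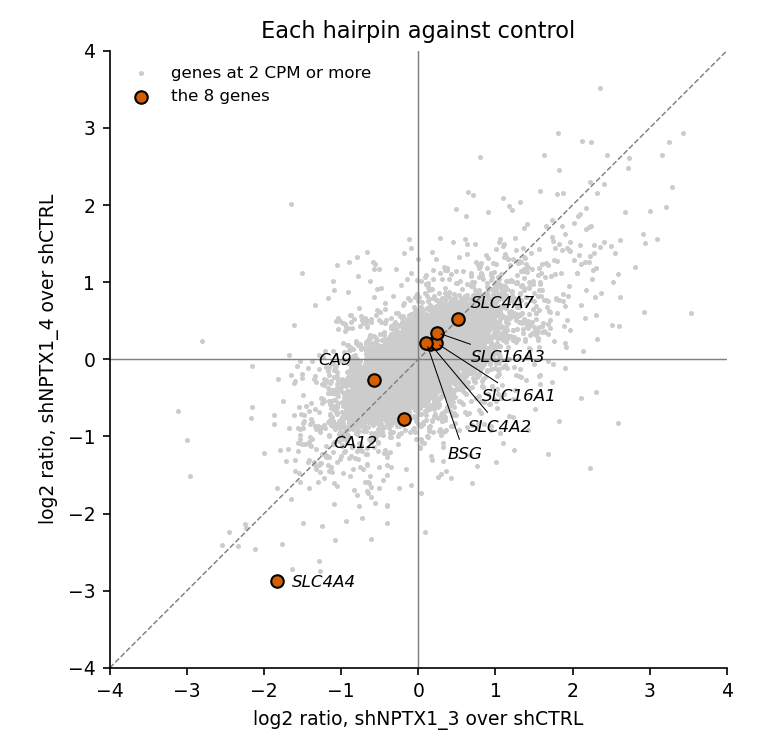
Log2 ratio to control of shNPTX1_4 (vertical) against shNPTX1_3 (horizontal), pseudocount 1, for the 8 genes and, in grey, genes at 2 CPM or more, 6 of which lie beyond the axes; both axes share the control tumours. The dashed line marks equal ratios, and SLC4A4, at -1.83 and -2.87, lies at the lower edge of the cloud.

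Other routes of proton export were read from lists of related genes, which like the 8 genes were chosen with earlier results of these data known. Their counts of calls stand beside 27.3% called over all genes, 15.8% higher and 11.5% lower. Nothing particular to a list is read from them. Of the sodium-proton exchanger family SLC9, 12 of 13 genes had an adjusted p by the authors' deposited table, of which 2 rose, 2 fell and 8 did not pass, with a median log2 fold change of -0.26; with total scaling 2 rose and 4 fell. SLC9A7, an exchanger of the trans-Golgi network, rose by 0.50 by the authors' deposited table. The apical exchanger SLC9A3 fell by 0.93, below 2 CPM, and SLC9B2 by 0.35 by the authors' deposited table. Of 11 tested partners and regulators of these transporters, 4 rose and 1 fell, while with total scaling 3 rose and 3 fell. Ezrin (EZR), a membrane-cytoskeleton linker, rose by 0.49, the scaffold SLC9A3R2 by 0.73 and the kinase OXSR1 by 0.31 by the authors' deposited table, while the kinase WNK1 fell by 0.50. Of the SLC26 anion exchangers, 9 were tested and 0 passed in the DESeq2 results of the authors' deposited table; SLC26A1 passed, lower, with total scaling (adjusted p = 0.0443). At an unadjusted p under 0.05, 2 of the 9 passed.

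Of 15 genes of lactate and pyruvate metabolism, 3 rose and 0 fell by the authors' deposited table, with a median log2 fold change of 0.18, and 8 had an unadjusted p under 0.05. These counts stand beside 27.3% called over all genes, and nothing particular to the list is read from them. With total scaling 2 rose and 1 fell, PDK2, a kinase of pyruvate dehydrogenase (adjusted p = 0.0238). PDK4, which inhibits pyruvate dehydrogenase, rose by 2.31 by the authors' deposited table, with group means of 2253 normalized counts in shNPTX1_3 tumours and 835 in shNPTX1_4 tumours, against 292 in shCTRL tumours. PDK1, of the same family, rose by 0.49. PDHX, a component of pyruvate dehydrogenase, rose by 0.27 (adjusted p = 0.0461 by the authors' deposited table, and 0.143 with total scaling). LDHA, which makes lactate from pyruvate, had a log2 fold change of 0.30 and missed the threshold with an adjusted p of 0.0501 by the authors' deposited table. Of 7 genes of glucose entry, 4 rose and 1 fell by the authors' deposited table, beside 15.8% higher and 11.5% lower over all genes. Nothing particular to this list is read from these counts either. The glucose transporter SLC2A1 rose by 0.94, PFKFB4, which makes an activator of glycolysis, by 0.69 and the pyruvate kinase gene PKM by 0.47, while SLC2A3 fell by 0.38. The group mean of SLC2A1 was 2.66-fold control with shNPTX1_3 and 1.35-fold with shNPTX1_4. For PFKFB4 these ratios were 1.69 and 1.48, for PKM 1.54 and 1.28, and for SLC2A3 0.699 and 0.804.

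The hypoxia-induced genes other than CA9 and SLC16A3 were mostly higher. Of 11 such genes, 8 rose and 0 fell by the authors' deposited table, beside 15.8% higher and 11.5% lower over all genes. Their median log2 fold change was 0.76, beside -0.01 over all genes with an adjusted p and 0.02 over genes at 2 CPM or more. The list was chosen with earlier results of these data known, so nothing particular to it is read from these values. EGLN3, a prolyl hydroxylase of hypoxia-inducible factor, had 125 normalized counts in shNPTX1_3 tumours and 24.2 in shNPTX1_4 tumours, against 15.5 in shCTRL tumours. It thus reached the 2 CPM minimum, 38.6 normalized counts, through shNPTX1_3 only. VEGFA, a vascular growth factor, rose by 1.18, the mitophagy receptor gene BNIP3 by 0.92 and the vasoactive peptide gene ADM by 0.91 by the authors' deposited table. The ratios of group means to control with shNPTX1_3 and shNPTX1_4 were 3.26 and 1.53 for VEGFA. They were 2.02 and 1.79 for BNIP3, and 1.41 and 2.22 for ADM. These gaps between hairpins were not tested. HIF1A, a subunit of the factor itself, rose by 0.50 and its partner ARNT fell by 0.42 by the authors' deposited table, while EPAS1 did not pass (adjusted p = 0.966). In the same tumours SLC16A3 had a log2 fold change of 0.30 and CA9 one of -0.36 by the authors' deposited table, and the interval of CA9 was wide, as given above.

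**Figure D5:**
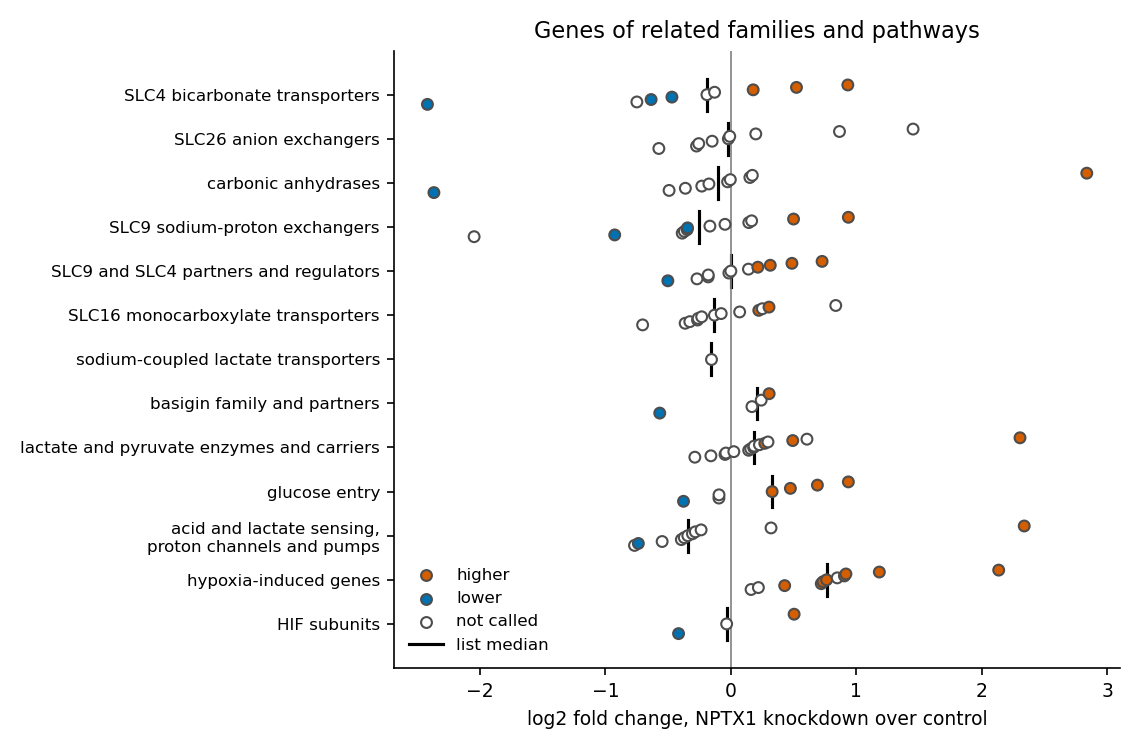
Log2 fold change, NPTX1 knockdown over control, of each gene with an adjusted p in the lists of related genes, coloured by its call at an adjusted p of 0.05, with the list median as a bar. The hypoxia-induced genes have a median of 0.76, while the SLC4, SLC9, SLC16 and carbonic anhydrase families have medians from -0.26 to -0.10, with genes on both sides of 0.

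Exons of 5 of the 8 genes share bases with another annotated gene in GENCODE release 29, and since no source used here gives the strand setting of the counting, reads of those stretches are uncertain. CA9 shares 643 bases with ARHGEF39 on the other strand, which had 589 and 790 normalized counts in shNPTX1_3 and shNPTX1_4 tumours, against 852 in shCTRL tumours. These levels exceed those of CA9 many times over, and how far the low CA9 counts hold reads of ARHGEF39 was not tested. SLC4A2 shares 714 bases with an antisense gene, AC010973.2, and 331 with CDK5 on the other strand. SLC16A3 shares 482 bases with CSNK1D on the other strand and 61 with a microRNA gene on its own. SLC16A1 and BSG share 175 and 140 bases with antisense genes, while SLC4A4, SLC4A7 and CA12 share none.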

How the data were processed

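RNA-seq was done by the submitters on 11 libraries, and the submitters' processing notes name DESeq2 1.24, featureCounts 2.0.0, STAR 2.7.6a and MultiQC 1.9, with the builds hg19 and mm39, without their roles. The sources used here do not give the annotation, the strand setting or the handling of host reads. Per the file headers, the authors' deposited table holds group means of normalized counts (a signal), a log2 fold change, its standard error and a Wald statistic (scores), a p-value and an adjusted p-value. Weighting the group means by their 3, 4 and 4 libraries gave the deposited overall mean in 21894 of 21898 rows, within a relative 1e-06. Of 23434 rows, 107 were left out (79 without a name, 26 named by a date, 2 with a repeated name), holding 0.387% of the counts.

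Computed here with Python 3.11.15, pandas 2.3.3 and scipy 1.17.1 were log2 ratios per hairpin (pseudocount 1), 95% intervals from the standard errors, calls at an adjusted p under 0.05, levels per kilobase of all exons in GENCODE release 29, and Wald p-values with Benjamini-Hochberg adjustment after rescaling, tested on simulated data. Coordinates are those of the RefSeq windows on GRCh38.p14, and none of the files' build were used. The median standard error was 0.125 at 2 CPM (38.6 normalized counts) or more. The 8 genes and all lists were chosen with earlier results of these data known. Named from the lists were called genes at 2 CPM or more, up to 4 per list by size of change (some are not reported here), and paralogs above a member per length; CA2, SLC9A3, SLC9B2, LDHA, PDK2, EPAS1, SLC26A1, SLC16A7, SLC16A12, SLC5A12, PPIA, HCAR1 and the marker genes were named after their values were seen.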

Additional observations from a re-analysis of the deposited data

How the results depend on the processing

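The pooled log2 fold changes of all 8 genes kept their direction under every setting tried, but none could have turned round. Total scaling took 0.07 and median centring 0.02 off each, less than the smallest change of the 8, 0.17 for BSG. The other settings altered only the adjusted p or its threshold. Of 39 alternative values of these log2 fold changes, 33 stayed on the same side of the threshold. With total scaling, 2 of the 8 genes passed, 1 higher and 1 lower, SLC4A7 and SLC4A4. With the threshold at 0.01, 3 passed, 2 of them higher, and over all genes 3148 passed, 1899 higher and 1249 lower, against 5027, 2913 and 2114 at 0.05. The share of called genes that were higher was 57.9% as deposited and 41.4% with total scaling. Per kilobase with the median coding transcript, the order of SLC4A7 and SLC4A2 also turned round, at 1898 and 3683 normalized counts per kilobase; the length settings were chosen after seeing the data, and the length chosen sets such orders between genes but not a gene's change between groups. No paired analysis was possible because the deposited columns are group means without replicate numbers, and for the same reason leaving out single libraries and exact tests between libraries were not run. Depth limits CA9 most: at its counts the standard error was 0.44, against 0.07 for SLC16A1.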

Other observations

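Genes that sense acid or lactate were expressed at low levels. Of 13 genes for acid and lactate sensors, proton channels and gastric-type proton pumps, 11 had an adjusted p by the authors' deposited table. Of these, 1 rose, 1 fell and 9 did not pass, with a median log2 fold change of -0.34. These counts stand beside 27.3% called over all genes. ASIC2, an acid-sensing sodium channel known mainly from neurons, rose by 2.34 on the log2 scale (SE 0.30, adjusted p = 4.48e-13) by the authors' deposited table. Its group means were 58.5 normalized counts in shNPTX1_3 tumours and 91.1 in shNPTX1_4 tumours, against 15.8 in shCTRL tumours. Both knockdown groups thus stood above control. ASIC2 reached the 2 CPM minimum for naming, 38.6 normalized counts, through the knockdown groups only. HVCN1, the voltage-gated proton channel, fell by 0.74 by the authors' deposited table (DESeq2, adjusted p = 0.0104), below 2 CPM, and was named after its value was seen. The lactate receptor gene HCAR1 had 123, 121 and 142 normalized counts in shNPTX1_3, shNPTX1_4 and shCTRL tumours and did not pass (adjusted p = 0.295).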
